A study of Mus musculus with 12 samples.

Results

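Mfge8, Megf6, Efs, Elmo3, Dnah7b, Fbxw7 and St8sia1 were followed in the medial prefrontal cortex (mPFC) of mice with a constricted sciatic nerve. They are 7 of the 34745 genes in the deposited table. They were picked because they had small p-values between the right and the left mPFC in an earlier look at the same libraries, so their right-to-left difference is given here as a description and is not tested. Transcripts were measured by RNA sequencing in wild-type male mice. Chronic constriction injury (CCI), a surgical model of neuropathic pain in which the nerve is loosely tied, was made 28 days before sampling. The 12 libraries fall into 3 groups of 4. One group holds the left mPFC after CCI, on the side of the operation, one the right mPFC after CCI, on the opposite side, and one the mPFC of naive mice, which had no treatment and are labelled as day 28 of habituation. All groups are wild type. The labels name neither a hemisphere for the naive libraries nor a strain or age, and no sham operation stands among the groups. A right-to-left difference that all mice might have cannot be told apart from one that came with the injury.

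The codes of the CCI libraries hold a number from 1 to 4 and the letter L or R. A shared number is taken here to mean a shared mouse, which the labels do not state. Where they do not come from separate animals, p-values measure only the spread between these samples. Total counts per library were between 16089476 and 20647242. All 12 markers of excitatory neurons were measured in every library, with a summed level of 4728 to 5745 CPM (counts scaled per megacount of the library). Right library 1 stood apart in striatal genes, whose 10 markers summed to 563 CPM there and to 255 to 315 CPM in the other libraries. The astrocyte transporter gene Slc1a2 took values from 295 to 2786 CPM with high and low libraries in each of the 3 groups, and made up 43.4% of the summed astrocyte markers.

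Mfge8 encodes a secreted bridge between phosphatidylserine on dying cells or debris and integrins on the engulfing cell, and is made by astrocytes and vessel wall cells among others. Elmo3 belongs to the ELMO family, whose members act with DOCK proteins to activate the GTPase Rac during engulfment and cell movement. Megf6 encodes a protein with many EGF-like repeats, and Efs an adaptor of the CAS family that is bound by Src kinases at sites of integrin adhesion. Dnah7b encodes a heavy chain of the inner dynein arm, the motor of motile cilia, which in the brain are borne by ependymal cells. Fbxw7 encodes the substrate-binding subunit of an SCF ubiquitin ligase that marks proteins such as cyclin E, Myc, Jun and Notch for degradation. St8sia1 encodes GD3 synthase, the sialyltransferase that leads from ganglioside GM3 to GD3 and so into the b-series gangliosides.

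The RefSeq promoter table (GRCm38.p6, 250 bases before to 50 after each start) held 8 start sites for 6 of the 7 genes and no entry for Elmo3. Of these, 2 genes higher and 2 lower on the right are shown, so that the sequence before genes of opposite difference can be compared. Each runs 5′ to 3′ on the strand of its gene, and capitals mark the GC box GGGCGG on either strand.
Mfge8 (chr7:79149011-79149310, minus strand): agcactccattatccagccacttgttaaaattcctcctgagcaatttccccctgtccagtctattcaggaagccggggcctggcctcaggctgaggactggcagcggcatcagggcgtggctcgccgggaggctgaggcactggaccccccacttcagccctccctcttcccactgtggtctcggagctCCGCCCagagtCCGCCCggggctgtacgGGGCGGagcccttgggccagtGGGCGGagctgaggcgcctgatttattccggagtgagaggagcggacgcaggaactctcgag
Megf6 (chr4:154170463-154170762, plus strand): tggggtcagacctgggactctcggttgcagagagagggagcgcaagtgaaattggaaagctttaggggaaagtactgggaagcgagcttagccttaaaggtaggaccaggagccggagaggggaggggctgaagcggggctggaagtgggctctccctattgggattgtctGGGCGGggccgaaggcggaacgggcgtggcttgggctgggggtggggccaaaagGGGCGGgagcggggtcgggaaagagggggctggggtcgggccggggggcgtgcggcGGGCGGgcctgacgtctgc
Fbxw7 (chr3:84815327-84815626, plus strand): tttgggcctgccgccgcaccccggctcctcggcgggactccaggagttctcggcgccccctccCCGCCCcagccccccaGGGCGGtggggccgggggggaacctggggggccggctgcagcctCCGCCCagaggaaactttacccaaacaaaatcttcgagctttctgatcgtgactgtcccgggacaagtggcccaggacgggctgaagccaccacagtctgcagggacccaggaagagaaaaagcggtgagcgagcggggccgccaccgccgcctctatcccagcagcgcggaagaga
St8sia1 (chr6:142964403-142964702, minus strand): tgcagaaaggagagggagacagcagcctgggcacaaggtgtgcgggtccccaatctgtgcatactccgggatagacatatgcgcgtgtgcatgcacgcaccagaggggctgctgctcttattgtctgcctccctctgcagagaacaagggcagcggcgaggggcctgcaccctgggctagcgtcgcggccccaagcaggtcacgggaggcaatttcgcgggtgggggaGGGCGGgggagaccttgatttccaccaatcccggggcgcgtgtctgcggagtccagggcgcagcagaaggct
The GC box stood in promoters of both directions, 4 times for Mfge8, 3 times each for Megf6 and the first start of Fbxw7, 2 times for the third start of Fbxw7, and 1 time for St8sia1. It was not among the letters of the Efs and Dnah7b windows or of the second Fbxw7 window. Of all 32851 promoters in the table, 35.7% held it. The CCAAT box (CCAAT, both strands) was found in the windows of Megf6 and St8sia1, with 2 copies each, and stood in 37.4% of all promoters. The TATA box (TATAAA, both strands) was in 1 of the 8 windows, the second of Fbxw7, and in 13.6% of all promoters. The E box (CACGTG) and the cAMP response element (TGACGTCA), which read the same on both strands, were in none of the 8, against 7.15% and 1.79% of all promoters. Fbxw7 has 3 start sites in the table. The first had a GC content of 69.0% and 24 CpG dinucleotides, the second 29.7% and 1, and the third 46.0% and 6, beside medians of 52.7% and 7 over all promoters. The deposited counts are per gene and do not separate these starts.

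The genes differed widely in level. Per gene length, in the FPKM values (fragments per kilobase of transcript, scaled by library total) that the authors deposited, Fbxw7 was highest at 23.3 ± 3.75 FPKM (SD over the 12 libraries), followed by Mfge8 at 17.1 ± 3.60, St8sia1 at 5.28 ± 0.569 and Efs at 2.54 ± 0.533. Megf6 at 0.405 ± 0.0893 and Elmo3 at 0.369 ± 0.156 were neighbours that did not differ beyond their spread. Dnah7b was lowest at 0.193 ± 0.0451 FPKM. Elmo3 rested on 9 to 33 counts per library, Megf6 on 50 to 100 and Dnah7b on 52 to 96, while Fbxw7 had 2847 to 5728. Counting error alone is thus large for Elmo3 and small for Fbxw7, Mfge8 and St8sia1.

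**Figure D1:**
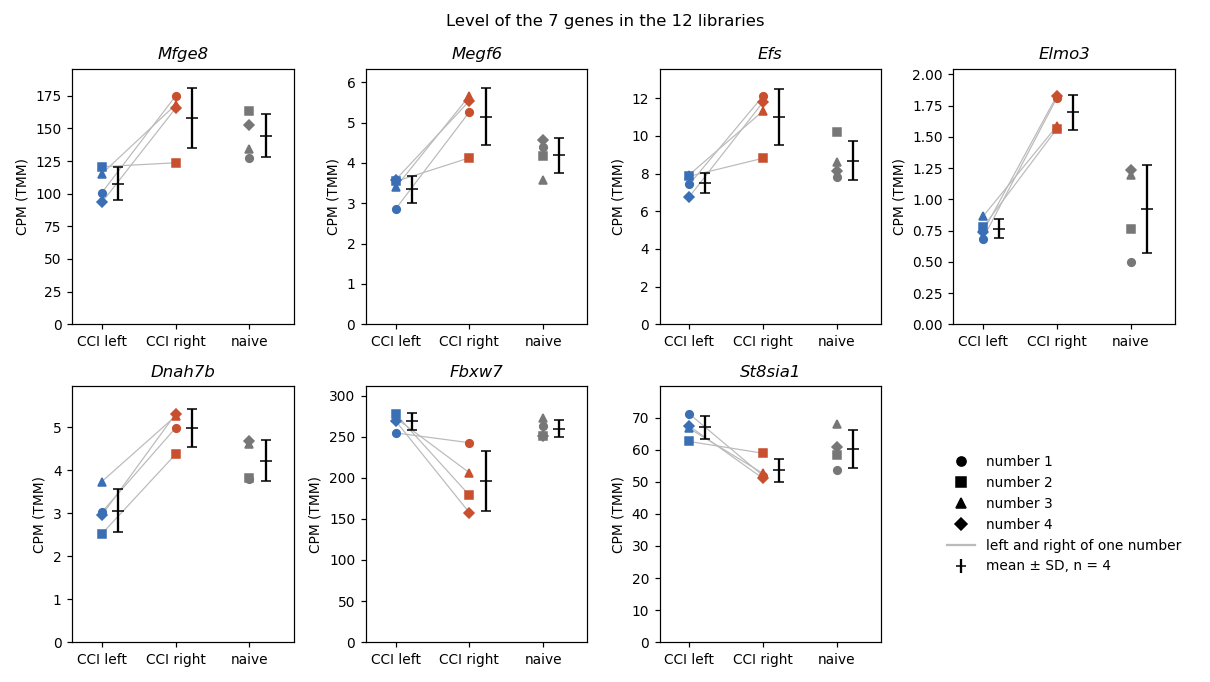
Level of each gene in CPM with TMM factors (y axis, from 0) in the left and right mPFC of CCI mice and in naive mice, with one symbol per library number, grey lines joining left and right libraries of one number, and bars for the mean ± SD of 4 libraries. Mfge8, Megf6, Efs, Elmo3 and Dnah7b lie higher in right than in left libraries, and Fbxw7 and St8sia1 lower; these differences are what the genes were picked for.

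Levels by library were computed as CPM with scaling factors by the trimmed mean of M-values (TMM). Mfge8 (ENSMUSG00000030605; chromosome 7, 79133768 to 79149060, minus strand, GRCm38/mm10) was at 101, 121, 115 and 93.3 CPM in left libraries 1 to 4, at 175, 124, 168 and 166 in right libraries 1 to 4, and at 128, 163, 134 and 153 in naive libraries. The left libraries were all below the naive ones. Right library 2 stayed near left library 2, the other right libraries lay above every naive one, and left and right did not overlap. The means were 108 ± 12.6 CPM on the left, 158 ± 23.2 on the right and 144 ± 16.6 in naive mice (SD, n = 4 each).

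Elmo3 (ENSMUSG00000014791; chromosome 8, 105305601 to 105310623, plus strand), the other gene of the engulfment machinery, had counts of 12, 16, 15 and 13 on the left, 33, 25, 28 and 33 on the right, and 9, 13, 20 and 21 in naive mice. In CPM this was 0.766 ± 0.0747 on the left, 1.70 ± 0.141 on the right and 0.924 ± 0.352 in naive mice (SD, n = 4 each). All right libraries were above all naive ones, and the left libraries lay within the naive range. The gene starts 231 bases after the end of E2f4 on the same strand. E2f4, a cell cycle transcription factor gene, was at 28.8 CPM on the left and 27.7 CPM on the right on average.

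Megf6 (ENSMUSG00000057751; chromosome 4, 154170730 to 154275713, plus strand) was at 2.86, 3.54, 3.39 and 3.58 CPM on the left and at 5.26, 4.13, 5.66 and 5.54 CPM on the right, with 3.59 to 4.57 CPM in naive mice. The left libraries were below all naive libraries, and all right libraries but number 2 were above them. Efs (ENSMUSG00000022203; chromosome 14, 54916543 to 54926788, minus strand) was at 7.43, 7.86, 7.94 and 6.76 CPM on the left and at 12.1, 8.81, 11.3 and 11.8 CPM on the right, with 7.80 to 10.2 CPM in naive mice. Left and right did not overlap for either gene, and for Efs right library 2 again lay nearest to the left ones.

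Dnah7b (ENSMUSG00000041144; chromosome 1, 46066315 to 46373546, plus strand) was at 3.03, 2.52, 3.74 and 2.96 CPM on the left, at 4.99, 4.38, 5.26 and 5.32 CPM on the right, and at 3.79 to 4.69 CPM in naive mice. The left libraries were all below the naive range, and all right libraries but number 2 were above it. Dnah7b has near-identical relatives: 48.4% of the 50-base words of its longest GENCODE M21 transcript also occur in transcripts of Dnah7a or Dnah7c (30.4% in the first, 38.5% in the second), so its reads may have been shared between these genes. No other member shared more than 1.72% of its words with another gene. The sum of Dnah7a, Dnah7b and Dnah7c, a measure chosen after seeing the data, was 7.73 ± 1.70 CPM on the left, 10.8 ± 1.82 on the right and 9.32 ± 0.365 in naive mice (SD, n = 4 each). In this sum left and right libraries overlapped, with 9.89 CPM in left library 3 and 8.31 CPM in right library 2. Within numbers 1 to 4 the right minus left difference of the log2 sum was 0.93, 0.17, 0.18 and 0.68.

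Fbxw7 (ENSMUSG00000028086; chromosome 3, 84815268 to 84979198, plus strand) was at 255, 278, 273 and 269 CPM on the left, at 243, 179, 206 and 158 CPM on the right, and at 263, 251, 272 and 251 CPM in naive mice. Here the left libraries lay near the naive ones and the right libraries lay below both, right library 1 by little and right library 4 by the most. The right libraries were also the most unlike each other, with an SD of 36.7 CPM against 9.99 on the left and 10.4 in naive mice. The predicted gene models Gm37240 and Gm37726 lie over the same stretch of the chromosome, with at most 26 and 1 counts per library.

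St8sia1 (ENSMUSG00000030283; chromosome 6, 142821545 to 142964452, minus strand) was at 71.2, 62.6, 66.6 and 67.4 CPM on the left, at 51.9, 58.9, 52.6 and 51.0 CPM on the right, and at 53.8, 58.3, 68.1 and 61.0 CPM in naive mice. Left and right did not overlap, and the naive libraries spanned from the right levels into the left ones. The model Gm7457 overlaps its end and had at most 2 counts per library.

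The right minus left difference of log2 CPM within a number (prior count 2) was positive in all 4 numbers for 5 of the genes, as in 6.41% of all tested genes, and negative in all 4 for Fbxw7 and St8sia1, as in 6.33%. Mfge8 stood at 0.79, 0.04, 0.54 and 0.83 in numbers 1 to 4, Efs at 0.70, 0.16, 0.51 and 0.79, and Megf6 at 0.86, 0.21, 0.72 and 0.61. These 3 genes had their smallest difference in number 2, and so did St8sia1, at -0.46, -0.09, -0.34 and -0.40. Elmo3 at 1.27, 0.91, 0.80 and 1.19 and Dnah7b at 0.70, 0.77, 0.48 and 0.82 differed in number 2 as in the others, with their smallest difference in number 3. Fbxw7 had another order, with -0.07 in number 1, -0.64 in number 2, -0.40 in number 3 and -0.77 in number 4. The mean over numbers ranged from 0.54 ± 0.277 for Efs to 1.04 ± 0.221 for Elmo3 among the genes higher on the right, and was -0.47 ± 0.308 for Fbxw7 and -0.32 ± 0.163 for St8sia1 (SD, n = 4). The median over all 15808 tested genes was 0.00, and the median size of a difference regardless of sign was 0.17, 0.13, 0.15 and 0.21 in numbers 1 to 4.

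**Figure D2:**
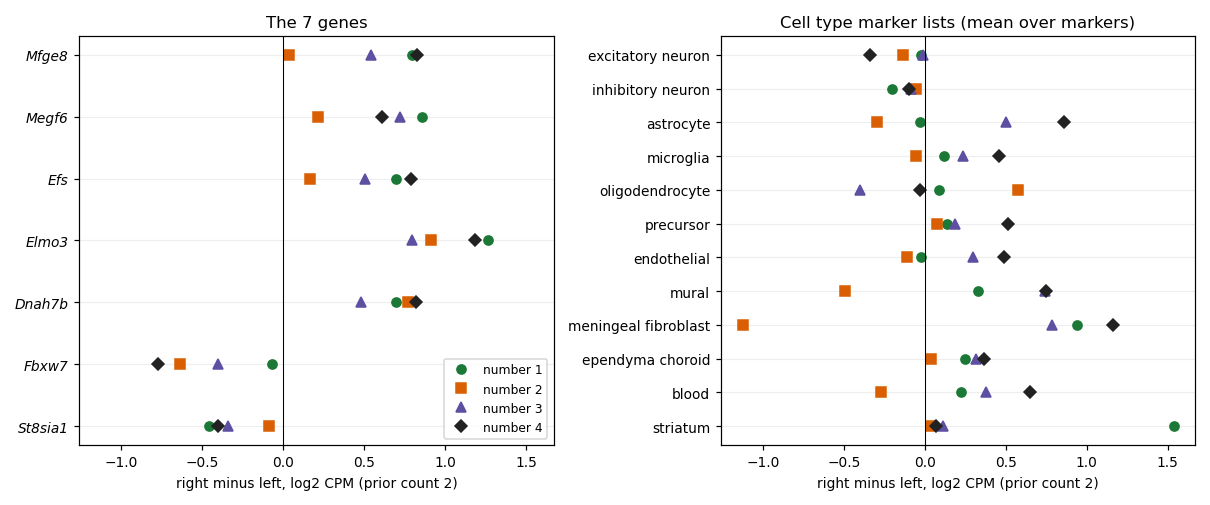
Right minus left difference in log2 CPM (x axis) by library number for the 7 genes (left panel) and, as the mean over the tested markers, for 12 cell type marker lists (right panel). In number 2 Mfge8 stands at 0.04 and the meningeal list at -1.13, while Fbxw7 stands at -0.64 there and at -0.07 in number 1.

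All 7 genes passed the filter on low counts, and in the edgeR fit of all 12 libraries they took ranks 2 to 7 and 11 by p between the sides. Of all genes tested in that contrast, 0% passed at an adjusted p under 0.05 (0 of 15808 in edgeR, and 0 with DESeq2 and with limma voom), and 8.36% had an unadjusted p under 0.05 in edgeR (1322 genes). Tbx15 at rank 1, at less than 1 CPM in every library, and Scn3b and Eno2 at ranks 8 and 9 stood among the members without being of them. Just outside was Zfp568 at rank 13 (log2 fold change -1.12, SE 0.263), beside -0.32 (SE 0.0747) for St8sia1 at rank 11. In 5 members every right library was above every left one, as in 255 of all tested genes (1.61%), and in the other 2 every right library was below, as in 211 genes (1.33%). Nothing is read from these shares, since the genes were picked on this contrast.

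The count of genes past the threshold between the sides turned on number 2. Without right library 2 it was 159 genes (0.996%), and without both libraries of number 2 it was 286 (1.8%). In both cases Mfge8, Megf6, Efs, Dnah7b and St8sia1 were among the called genes and Elmo3 and Fbxw7 were not, which again describes the picked contrast. The Mfge8 log2 fold change was 0.56 with all libraries and 0.72 without number 2, and that of Fbxw7 -0.45 and -0.39. Without right library 1, which stood apart in striatal genes, the log2 fold changes were 0.50 for Mfge8, 0.61 for Megf6, 0.50 for Efs, 1.11 for Elmo3, 0.71 for Dnah7b, -0.57 for Fbxw7 and -0.31 for St8sia1, so that Fbxw7 moved the most.

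Naive levels do not enter the right-to-left difference, though naive libraries share the estimate of spread in the fit of 12 libraries. Set beside naive, the difference lay on different sides. For Mfge8 and Dnah7b the left stood further from naive than the right, at 0.745 and 0.728 of the naive level against 1.09 and 1.18 for the right (geometric means, prior count 2). For Fbxw7 it was the right that stood further away, at 0.747 of the naive level, with the left at 1.03. Elmo3 on the right was at 1.83 times the naive level and on the left at 0.888. Megf6 (0.804 left, 1.22 right), Efs (0.867 left, 1.26 right) and St8sia1 (1.11 left, 0.891 right) lay on either side of naive. For Efs, Elmo3 and Dnah7b all 4 left libraries were below and all 4 right libraries above the naive mean, as in 49 of all tested genes (0.31%), and for St8sia1 the reverse held, as in 39 (0.247%). These values share the CCI libraries with the contrast that picked the genes, and the difference of left or right from naive was not tested. How many of all genes have a side wholly above or below naive was not counted, so nothing is read from such cases.

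**Figure D3:**
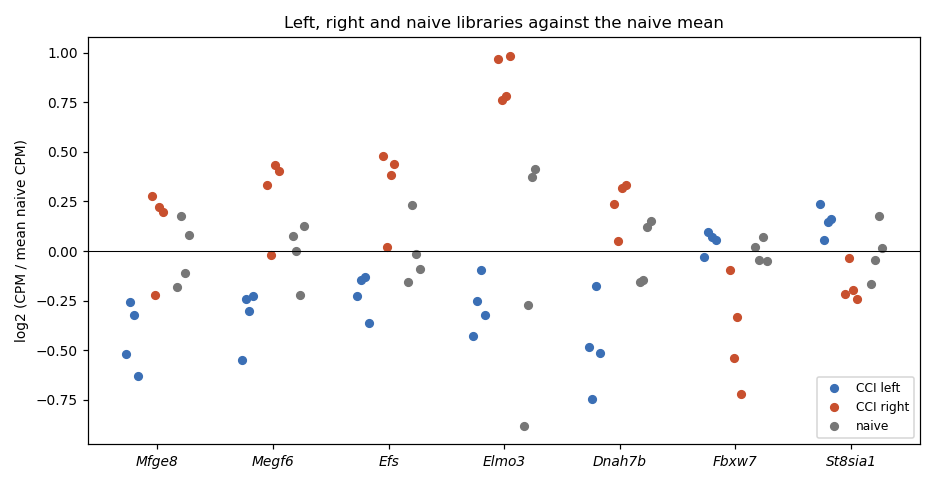
Each library's level as log2 of its CPM over the mean naive CPM (y axis) for the 7 genes, with left, right and naive libraries in separate colours. Left libraries of Mfge8, Megf6 and Dnah7b lie below the naive points, right libraries of Elmo3 above them and right libraries of Fbxw7 below them. How many of all genes lie so was not counted, and the genes were picked on these CCI libraries.

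Whether the genes differed between injured and naive mice was tested with left and right counts of each CCI number summed. The sum holds the same CCI libraries on which the genes were picked. It is apart from the picked difference only where both sides vary alike. None of the 7 passed. Of all 16179 tested genes 0% passed in edgeR (0 genes, with 679 or 4.2% at an unadjusted p under 0.05). DESeq2 called 31 genes (0.196%) and limma voom 0, with no member among them. Fbxw7 came nearest: the 4 CCI mice were at 248, 235, 239 and 213 CPM and the naive mice at 263, 252, 272 and 251 CPM, so that all CCI mice were below all naive ones, as in 242 of the tested genes (1.5%). The log2 fold change of Fbxw7 was -0.15 (SE 0.0525; edgeR unadjusted p = 0.0149, adjusted p = 1.00). Its adjusted p was 0.968 or more in the 7 alternative fits and 0.831 or more with a mouse left out. For Fbxw7 the sides did not vary alike, with an SD of 36.7 CPM on the right and 9.99 CPM on the left. The right stood at 0.747 of the naive level and the left at 1.035. The lower sum of Fbxw7 thus rested on the right libraries, on which it was picked, and nothing is read from its unadjusted p.

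Elmo3 stood at 0.41 (SE 0.255) in CCI against naive mice, higher than the naive mean in 4 of 4 CCI mice, but the naive mice themselves ranged from 0.502 to 1.23 CPM. Without naive mouse 1 the value of Elmo3 was 0.20, and with any one mouse left out it lay between 0.20 and 0.58. Mfge8 stood at -0.12 (SE 0.0804), at 133 ± 8.94 CPM in CCI and 144 ± 16.8 CPM in naive mice (SD, n = 4 each), and ranged from -0.17 to -0.05 with a mouse left out, the latter without naive mouse 2. Efs (0.09, SE 0.103; 0.05 without naive mouse 1 and 0.18 without naive mouse 2), Dnah7b (-0.08, SE 0.132), Megf6 (0.02, SE 0.120) and St8sia1 (0.00, SE 0.0654) lay within about 1 SE of no difference. The edgeR adjusted p was 1.00 for each of the 7. The SE of Elmo3 was the widest of the 7.

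Values of the near relatives, by a fixed list, are given beside those of the 7 genes. The 7 were picked for their difference between the sides and the relatives were not, so a smaller difference in a relative follows from the choice and nothing is read from it. In the ELMO and DOCK family Elmo1 stood at -0.09 (SE 0.0612), Elmo2 at -0.08 (SE 0.0645) and Dock1, the partner of ELMO proteins, at 0.13 (SE 0.0854). Elmo3, which was picked, stood at 1.14 (SE 0.254). Per length, Elmo1 was at 11.9 FPKM and Elmo2 at 19.3 FPKM on average over the 12 libraries, and Elmo3 at 0.369 FPKM. Rac1, the GTPase they act on, had a log2 fold change of -0.01 but a wide SE of 0.488: its right minus left differences were 1.45, 0.04, -0.05 and -1.83 in numbers 1 to 4. Of the 12 other genes of this list, 6 were higher and 6 lower on the right (median 0.04), 7 were higher and 5 lower in CCI than in naive mice (median 0.02), and 0 passed in edgeR in either comparison, with 0 at an unadjusted p under 0.05.

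Among engulfment genes, the receptor kinase gene Mertk stood at 0.18 (SE 0.118), its ligand gene Gas6 at -0.12 (SE 0.0712), and Itgav and Itgb5, whose products form an integrin that binds the Mfge8 protein, at -0.05 (SE 0.321) and 0.32 (SE 0.116). The complement gene C1qa stood at 0.27 and the lipid transporter gene Abca7 at -0.21. Of 25 tested genes of the list other than members, 14 were higher and 11 lower on the right (median 0.12, against 0.00 over all tested genes), and in CCI against naive mice 15 were higher and 10 lower (median 0.02). None passed in edgeR in either comparison. At an unadjusted p under 0.05 there were 2 between the sides and 1, Abca7 (0.15, SE 0.0577), between CCI and naive mice.

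Other EGF-repeat genes stood at 0.04 (Megf9), 0.15 (Megf10, an engulfment receptor of astrocytes) and -0.05 (Megf11) between the sides. Of 11 tested, 8 were higher on the right (median 0.16), 0 passed in edgeR and 0 had an unadjusted p under 0.05. Beside the fixed relatives, the smallest p in this list were those of Stab1 (0.25, SE 0.136) and Scarf1 (-0.34, SE 0.221), which went opposite ways. In CCI against naive mice 8 of 11 were higher (median 0.02) and 2 had an unadjusted p under 0.05: Egfl8 stood at 0.56 (SE 0.216) and Scarf2 at -0.36 (SE 0.151), with edgeR adjusted p = 1.00 for both. In the CAS family Bcar1, the founding member, stood at 0.06 (SE 0.052) and Nedd9 at 0.07 (SE 0.123), while Cass4, at 0.537 to 0.708 CPM in group means, stood at -0.40 (SE 0.378). Zyx, the zyxin gene (-0.18, SE 0.0841), and Ptk2, the focal adhesion kinase gene (-0.14, SE 0.0662), had the smallest p between the sides beside the fixed relatives and were lower on the right. The adhesion list gave 12 of 18 higher on the right (median 0.05) and 7 of 18 higher in CCI than in naive mice (median -0.01), with 0 passing in edgeR and 0 at an unadjusted p under 0.05 in either comparison.

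For Dnah7b, Dnah7a stood at 0.40 (SE 0.221) and Dnah7c at 0.21 (SE 0.278) between the sides. Of 21 tested genes of axonemal dyneins and motile cilia, 17 were higher on the right (median 0.22) and 8 of 21 higher in CCI than in naive mice (median -0.06). None passed in edgeR, and 1 had an unadjusted p under 0.05 in each comparison. Cfap44 (0.96, SE 0.305) and Spag6l (-0.49, SE 0.23) had the smallest p between the sides beside the fixed relatives and went opposite ways. In numbers 1 to 4 their right minus left differences were 1.78, -0.50, 0.58 and 1.86 for Cfap44 and -0.38, 0.34, -0.66 and -1.19 for Spag6l. The example of smallest p in CCI against naive mice was Hydin, a gene of the central apparatus of cilia (-0.83, SE 0.23; edgeR adjusted p = 0.889). Hydin was at 1.23 CPM in naive, 0.51 in left and 0.824 in right libraries on average. Foxj1, the master regulator of motile cilia, was at 2.04 to 4.50 CPM in all libraries, but the ependymal gene Tmem212 was listed at 0 counts in all 12 and Ccdc153 in 9.

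Between the sides, other subunits of the SCF ligase stood as follows: Cul1 at -0.08 (SE 0.0522), Skp1a at -0.06 (SE 0.0638) and Rbx1 at -0.01 (SE 0.0742), and the F-box genes Btrc and Fbxw11 at -0.15 (SE 0.064) and -0.05 (SE 0.0487). Of 15 tested, 6 were higher and 9 lower on the right (median -0.01), with 1 at an unadjusted p under 0.05, and 4 were higher and 11 lower in CCI than in naive mice (median -0.02), with 0. None passed in edgeR. Genes of known Fbxw7 targets were near balance, with 8 of 15 higher on the right (median 0.02) and 7 of 15 higher in CCI mice (median -0.01). Their examples were Notch2 (0.33, SE 0.137) and Srebf1 (0.18, SE 0.0692) between the sides, and Ccne1, the cyclin E1 gene (-0.21, SE 0.0767), and Notch1 (0.20, SE 0.0956) in CCI against naive mice. None passed in edgeR. At an unadjusted p under 0.05 there were 3 between the sides, all higher on the right, and 1 in CCI against naive mice, lower in CCI. Notch1 stood at 0.31 (SE 0.132) between the sides. Transcript levels do not show the amount of a protein that is controlled by its degradation.

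In ganglioside synthesis the genes next to St8sia1 also had negative differences: St3gal5, which makes GM3, at -0.16 (SE 0.0676), B4galnt1 at -0.12 (SE 0.0475), and St8sia5 at -0.15 (SE 0.0732). In number 2 they stood at 0.02, -0.02 and 0.15. Of 22 tested genes of the list, 14 were lower on the right (median -0.11), 0 passed in edgeR, and 6 had an unadjusted p under 0.05, 3 in each direction, among them Hexa, a lysosomal hexosaminidase subunit gene (0.14), and St3gal3 (-0.36). In CCI against naive mice 14 of 22 were lower (median -0.02), with 0 passing and 0 at an unadjusted p under 0.05.

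**Figure D4:**
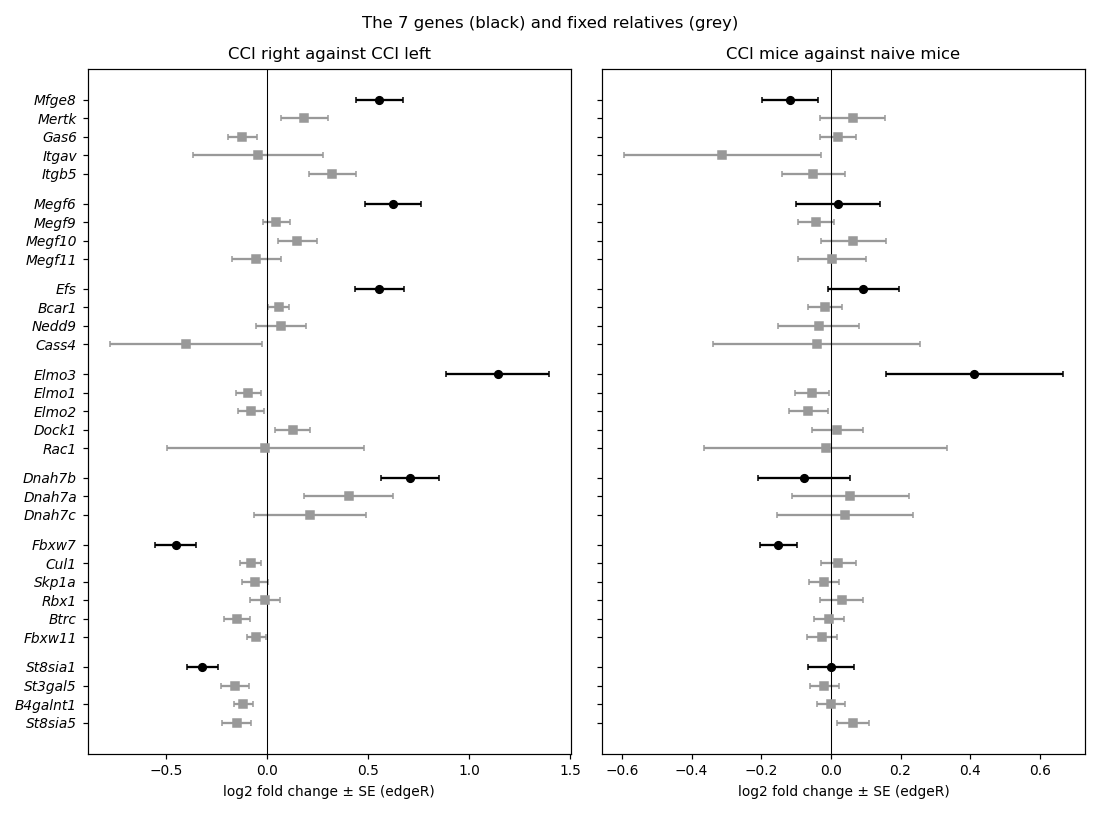
Log2 fold change ± SE from edgeR (x axes) for the 7 genes (black circles) and their fixed relatives (grey squares), right against left CCI mPFC on the left and CCI against naive mice on the right. Between the sides Elmo3 stands at 1.14 with Elmo1 at -0.09 and Elmo2 at -0.08, where the 7 genes were picked for this difference; in CCI against naive mice no gene shown passed the threshold.

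Markers of several cell types also lay higher on the right, though none passed in edgeR. Of all tested genes, 8084 of 15808 were higher on the right, and 8.36% had an unadjusted p under 0.05 in edgeR. Such a p was found for 5 astrocyte, 4 precursor, 4 striatal, 3 microglial, 3 mural, 1 endothelial and 1 blood marker, all higher on the right. Inhibitory neurons had 3, all lower on the right, and the remaining lists had 0. Of the tested markers, 12 of 12 for astrocytes, 12 of 12 for microglia, 10 of 10 for endothelium, 9 of 10 for mural cells, 11 of 12 for meninges and fibroblasts, 10 of 10 for oligodendrocytes, 8 of 8 for their precursors, 6 of 6 for ependyma and choroid plexus, 5 of 5 for blood and 9 of 10 for striatum were higher on the right, and 9 of 12 each for excitatory and inhibitory neurons were lower. Their mean right minus left differences in numbers 1 to 4 were 0.94, -1.13, 0.79 and 1.16 for meninges, 0.33, -0.49, 0.74 and 0.75 for mural cells, 0.12, -0.05, 0.24 and 0.46 for microglia, and -0.03, -0.30, 0.50 and 0.86 for astrocytes. The astrocyte values turn on Slc1a2, and the other 11 markers stood at 0.20, -0.08, 0.30 and 0.65, an alternative chosen after seeing the data. In these 4 lists, with Slc1a2 left out, number 2 was negative and the other numbers positive. Blood markers followed the same signs at 0.22, -0.27, 0.38 and 0.65, and endothelial ones were at -0.02, -0.11, 0.30 and 0.49. Precursors of oligodendrocytes were at 0.13, 0.07, 0.19 and 0.51, and ependyma and choroid plexus at 0.25, 0.04, 0.32 and 0.37. Both were also lowest in number 2, but positive there. Striatal markers, at 1.54, 0.04, 0.11 and 0.07, were lowest in number 2 as well and by far highest in number 1. The remaining lists had another order. Oligodendrocyte markers were at 0.09, 0.58, -0.40 and -0.03, highest in number 2. Excitatory neuron markers were at -0.02, -0.14, -0.01 and -0.34, and inhibitory ones at -0.20, -0.06, -0.09 and -0.09. Mfge8, Efs, Megf6 and St8sia1 differed least in number 2, where Elmo3, Dnah7b and Fbxw7 differed within the range of the other numbers.

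The summed markers were at 51.8 to 78.3 CPM on the left, 48.2 to 102 on the right and 70.1 to 95.2 in naive mice for meninges and fibroblasts, and at 253 to 284, 249 to 362 and 281 to 312 CPM for mural cells. Microglia summed to 442 to 461 CPM on the left, 433 to 622 on the right and 459 to 536 in naive mice. Astrocyte markers without Slc1a2 summed to 1492 to 1607, 1504 to 2118 and 1594 to 1830 CPM. In these 4 lists no marker was at 0 in any library. In the ependyma and choroid plexus list 4 of 10 were at 0 in some library (Folr1, Tmem212, Ccdc153 and Kcnj13). The list summed to 172 to 221 CPM on the left, 167 to 232 on the right and 173 to 197 in naive mice, of which Enpp2 made up 91.9%. The part of cell makeup in the differences of the 7 genes was not tested, and in such bulk samples fewer cells of a type and less RNA per cell cannot be told apart.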

How the data were processed

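RNA of 12 mPFC samples was sequenced from mRNA libraries, per the labels' protocols. For each gene the authors deposited unnormalized read counts as well as FPKM, per the file headers. FPKM served only to compare levels between genes. HISAT2 (2.0.4) and the build GRCm38/mm10 come from the submitters' processing notes, which give no roles. Sources used here do not give the counting program, its use of strand or its treatment of reads with several matches, which bears most on Dnah7b. Strand and transcripts are from GENCODE M21 (34267 of 34745 identifiers found), and gene coordinates are the deposited ones.

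The tests on these counts used edgeR 4.0.16 (R 4.3.3): TMM factors, filterByExpr by group, robust quasi-likelihood fits, two-sided, Benjamini-Hochberg over all tested genes, threshold 0.05, with the SE from the fold change and F. One fit held 12 libraries in 3 groups (15808 genes), the other 8 mice with left and right counts summed (16179 genes). Both were also run on simulated counts, in which only well-counted genes were changed and no mouse was shared between libraries. That check does not cover a deviant library or counts as low as those of Elmo3. Deviations of left and right libraries with a shared number correlated at r = -0.137 to 0.0601 across genes, and the fits have no block. Alternatives were DESeq2 1.42.0, limma 3.58.1 (voom), RLE factors, other filters, the CCI libraries alone, libraries as units, a replicate block, and leaving out samples. Named genes are the members, fixed relatives, up to 2 genes per list and comparison by smallest p, neighbours in rank and genes over a member. Some genes that these rules name are not reported here. The members and lists were chosen with earlier results of these data known. Totals of 16089476 to 20647242 counts limit Elmo3 most.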

Additional observations from a re-analysis of the deposited data

Results flagged for a closer look

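Efs, Elmo3, Dnah7b and St8sia1 had left and right libraries on opposite sides of the naive mean in every library, with right over left ratios of 1.45, 2.06, 1.62 and 0.801 (geometric mean over 4 numbers). Of all tested genes, 49 (0.31%) lay as Efs, Elmo3 and Dnah7b do, and 39 (0.247%) as St8sia1 does. Nothing is read from these shares, and the difference was not tested, since the genes were picked on it.

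Among summed markers, a library far from the others of its group was seen in 2 cases. Naive library 3 had astrocyte markers at 4093 CPM, beside 2064 to 2340 CPM in the other naive libraries, with Slc1a2 at 2499 CPM there. Right library 1 had striatal markers at 563 CPM, beside 268 to 313 CPM in the other right libraries. By the same rule the levels of the 7 genes gave no such library in any of the 3 groups. Right library 2 was nonetheless the right one nearest the left libraries in every gene but Fbxw7, for Elmo3 by little. For Mfge8 it stood at 124 CPM, beside 166 to 175 CPM in the other right libraries. Chance marks about 1 in 20 groups.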

How the results depend on the processing

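Between the sides, the log2 fold changes of the 7 genes kept their sign under all 7 alternative fits and in all 12 fits that left out a library or a number. In the latter they ranged from 0.47 to 0.72 for Mfge8 and from -0.60 to -0.36 for Fbxw7. The genes were picked on this contrast, and left and right libraries overlapped in none of them. Leaving out libraries could thus hardly turn a sign, and nothing is read from the kept signs. The number of genes past the threshold stayed 0 under the 7 alternatives, the replicate block included, and was 0 to 286 when libraries or numbers were left out, above 0 only without right library 2 (159) and without number 2 (286). For CCI against naive mice the count of 0 became 5 with no filter, 31 with DESeq2 and 1 with the replicate block, and 0 to 6 when a mouse was left out (6 without CCI mouse 1, CCI mouse 4 or naive mouse 2); no member was called in any of these fits.

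St8sia1, at -0.00038 in CCI against naive mice, turned to 0.00047 with RLE factors, 0.0048 with no filter, 0.00017 with a mean CPM of at least 1, 0.00073 with DESeq2, 0.0055 with limma voom and 0.0042 with the replicate block, all far below its SE. Megf6 turned to -0.012 with libraries as units. With a mouse left out St8sia1 ranged from -0.0503 to 0.0633, Megf6 from -0.0459 to 0.0711 and Dnah7b from -0.14 to 0.0022. The cause was not tested. The replicate block changed no other call; of the 4 CCI mice, 1 (number 4) correlated best with the naive mouse of its own number. Depth limits Elmo3, at 33 counts or fewer per library.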

Other observations

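The genes whose levels followed each member most closely were sought over the 12 libraries after the mean of each group was taken out, so that the difference between sides played no part. Among 14556 candidates with a mean of at least 1 CPM, Mfge8 was most like Cmtm3 (Pearson r = 0.983) and Slc6a17 (0.928). Efs was most like Tmem28 (0.959) and Mapkbp1 (0.946), Megf6 like BC022687 (0.961) and Ighmbp2 (0.942), and Elmo3 like Caap1 (0.929). St8sia1 was most like Agtpbp1 (0.937) and Pde4dip (0.935), Fbxw7 like Rcor3 (0.896) and Rab27a (0.879), and Dnah7b like Alk (0.878) and Gm15631 (0.865). These are the highest of many values over few libraries, which share depth and dissection, and are a description only.

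Among the members themselves, measured in the same way, Mfge8 and Efs had the highest value (r = 0.892), followed by Elmo3 and Dnah7b (0.598) and Mfge8 and Megf6 (0.583). Megf6 and St8sia1 had the lowest (-0.788). Fbxw7 had values between -0.09 and 0.251 with the other 6.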
